A study of Homo sapiens with 12 samples.

Results

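The 33 genes described here are classical targets of type I interferon. They were chosen by name, from general knowledge of the pathway and not by a rule on values. Earlier results of these data were known when they were chosen. All 33 were found by Ensembl ID among the 60617 genes of the deposited tables. By role they are 3 sensors of double-stranded RNA (RIGI, IFIH1, EIF2AK2), 3 transcription factors (STAT2, IRF7, IRF9), 1 feedback regulator (USP18) and 26 effectors. RNA was sequenced from 769-P, an established human cell line from a clear cell renal carcinoma, grown in RPMI1640 with fetal bovine serum. The 12 libraries form 4 groups of 3, all from that line: siDRAIC and its control siDRAIC-NC, and sihnRNPA2B1 and its control sihnRNPA2B1-NC. An siRNA is a short double-stranded RNA that lowers the RNA it is matched to; DRAIC is a long non-coding RNA and hnRNPA2B1 an RNA-binding protein of the nucleus. The labels do not give the siRNA sequences, dose or time, or what the NC controls received. Nor do they say that replicates were separate cultures, so a p-value here measures the spread between libraries only, which may be technical.

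Cells recognise double-stranded RNA in the cytoplasm through RIG-I (gene RIGI) and MDA5 (gene IFIH1), which signal through MAVS to the factors IRF3 and IRF7 and so to interferon beta. Secreted type I interferon binds the receptor pair IFNAR1 and IFNAR2, and the kinases JAK1 and TYK2 then activate STAT2, which with IRF9 is part of the complex ISGF3. That complex binds a short element, the interferon-stimulated response element, in the promoters of the effector genes, whose proteins degrade, sequester or block viral RNA and particles.

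The promoters show what the genes have in common beyond the list. The core of the response element was searched on both strands as GAAA, any 2 bases and GAAA again (TTTC, any 2 bases and TTTC when read from the other strand) in RefSeq windows of 300 bases, from 250 bases before to 50 after each start (GRCh38.p14). A window was found for 27 of the 33 genes, and 20 of these 27 genes (74.1%) held at least 1 match, against 1255 of all 35116 windows (3.57%). Of their 36 windows, 24 held a match and 16 held 2 or more. A second motif, TTCNNNGAA, the core of the gamma-activated sequence, was present in 7 of the 27 genes (25.9%). By window it was present in 8 of their 36, and in 7.66% of all windows. It can share bases with the first motif, as in BST2. A match is a description of the letters and not evidence of binding. RIGI, STAT2, SAMD9L, OAS1, IRF9, XAF1 and CMPK2 had no match of the first motif in any window. RSAD2 and MX1 held it in only some of their windows, RSAD2 not in the window at its gene start. IRF7, MX2, USP18, OAS2, IFIT2 and OASL had no window.

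The 160 bases before the start are printed for the 7 genes on which the results below turn, 5′ to 3′ on the strand of the gene, with each match of the first motif that lies wholly in those bases in capitals. ISG15, OAS3 and IFIT5 passed the test after hnRNPA2B1 siRNA, and IFI6, IFI44, HERC5 and BST2 had an unadjusted p below 0.05 in the libraries labelled siDRAIC. ISG15, HERC5 and BST2 each carry a pair of matches that overlap. IFI44 has 2 windows, of which 1 is shown. In IFIT5 another match, from 4 bases before the start to base 6 after it, is cut by the end of the printed stretch and left in lower case.
ISG15 (chr1:1013337-1013496, plus strand): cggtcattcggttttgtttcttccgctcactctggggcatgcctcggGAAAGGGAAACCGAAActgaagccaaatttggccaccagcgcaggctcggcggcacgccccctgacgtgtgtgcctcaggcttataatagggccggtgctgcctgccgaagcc
OAS3 (chr12:112938314-112938473, plus strand): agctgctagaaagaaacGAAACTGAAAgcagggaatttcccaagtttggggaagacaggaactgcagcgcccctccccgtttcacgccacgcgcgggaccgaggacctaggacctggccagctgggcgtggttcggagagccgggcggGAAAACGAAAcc
IFIT5 (chr10:89414408-89414567, plus strand): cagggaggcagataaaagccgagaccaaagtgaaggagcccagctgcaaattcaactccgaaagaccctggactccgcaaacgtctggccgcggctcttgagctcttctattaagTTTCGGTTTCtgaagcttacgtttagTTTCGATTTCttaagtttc
IFI6 (chr1:27672193-27672352, minus strand): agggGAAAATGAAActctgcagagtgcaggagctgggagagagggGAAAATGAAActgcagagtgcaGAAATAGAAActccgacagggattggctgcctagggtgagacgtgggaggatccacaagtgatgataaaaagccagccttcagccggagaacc
IFI44 (chr1:78649629-78649788, plus strand): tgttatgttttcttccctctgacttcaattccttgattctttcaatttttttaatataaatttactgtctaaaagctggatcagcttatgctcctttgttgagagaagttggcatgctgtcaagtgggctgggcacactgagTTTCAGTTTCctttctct
HERC5 (chr4:88456959-88457118, plus strand): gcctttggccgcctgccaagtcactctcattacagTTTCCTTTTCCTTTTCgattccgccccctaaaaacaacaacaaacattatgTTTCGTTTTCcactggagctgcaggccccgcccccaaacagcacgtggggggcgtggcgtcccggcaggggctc
BST2 (chr19:17405631-17405790, minus strand): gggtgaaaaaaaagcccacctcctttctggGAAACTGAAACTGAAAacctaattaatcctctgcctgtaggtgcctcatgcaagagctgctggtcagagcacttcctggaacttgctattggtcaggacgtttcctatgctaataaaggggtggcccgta

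Library totals ran from 30798303 to 42760528 counts, and 3 counts corresponded to 0.0702 to 0.0974 CPM (counts scaled to a common library total). HNRNPA2B1 RNA fell after its siRNA, from 420 ± 21.0 to 291 ± 16.7 CPM (SD, n = 3; log2 fold change -0.56, edgeR adjusted p = 2.16e-09). DRAIC had 2, 1 and 2 counts in siDRAIC-NC and 3, 6 and 0 in siDRAIC, so its knockdown was not detectable at this depth and those libraries are called the libraries labelled siDRAIC. The first siDRAIC-NC library stood apart: the chi-square of its counts over degrees of freedom was 140 against library 2 and 122 against library 3 of its group, beside 30.3 between those 2, 56.5 to 92.3 within siDRAIC and 4.94 to 16.9 within the hnRNPA2B1 groups. Values of the DRAIC experiment without that library are given beside the sensors, the factors, the genes that differed most clearly and the other lists. Those fits had no replicate block and kept the siDRAIC library of the same number. The pairing by number described below was thus broken in them, and its effect on the estimates was not tested. Markers of the kidney line summed to 1990 to 3923 CPM, with CA9 at 0 to 1 counts. Of 10 blood and immune cell markers, TYROBP, AIF1 and CD3E were at 0 in all 12 libraries, and the summed level ranged over 4.46 to 7.32 CPM in siDRAIC-NC and 1.07 to 1.39 in siDRAIC. It was 1.40 to 1.72 CPM in the sihnRNPA2B1-NC libraries and 0.598 to 0.965 in those with hnRNPA2B1 siRNA. LAPTM5 made up most of it in both control groups. In bulk RNA, fewer cells of a type and less RNA per cell cannot be told apart.

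The summed level of the 33 response genes was 377 to 442 CPM in siDRAIC-NC and 353 to 435 in siDRAIC. In the other experiment it was 287 to 299 CPM in the controls and 290 to 304 with the siRNA, so each siRNA group overlapped its own control in this sum. The sum follows few abundant genes and says little about those at low level. OAS3 and EIF2AK2 had means of 120 and 112 CPM in siDRAIC-NC, and EIF2AK2 had one of 101 in sihnRNPA2B1-NC. Per kilobase of merged exon, the highest levels in siDRAIC-NC were those of OAS3, with 14.6 CPM per kb, IFITM3, with 13.8, EIF2AK2, with 10.4, and ISG15, with 9.36. In sihnRNPA2B1-NC the highest were EIF2AK2, with 9.38 CPM per kb, ISG15, with 7.45, IFITM3, with 6.40, and IRF7, with 5.74. OAS3 stood at 3.34 CPM per kb there, below RIGI, IFIT3, STAT2 and IFIT5 too. At the other end were MX2, found in 2 of 12 libraries with 4 and 8 counts, and XAF1, found in 3 libraries with at most 4 counts. IFITM1, a membrane protein that hinders viral fusion, had 0 to 16 counts, and IRF9 had 1 to 7. IRF9 shares 48.4% of its exon bases with AL136295.5 on the same strand and IFITM1 shares 32.5% with IFITM2, so reads could have been split or lost there and these 2 levels are uncertain. XAF1 shares 38.3% and IFITM3 21.3% of exon bases with genes on the opposite strand, which cannot be told apart where strand was not used. MX2, XAF1, IFITM1 and IRF9 fell under the expression filter in every comparison, RSAD2 in the DRAIC experiment only, and CMPK2 in the hnRNPA2B1 experiment and between the controls. The 28 genes tested in each siRNA comparison are thus not the whole list.

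**Figure D1:**
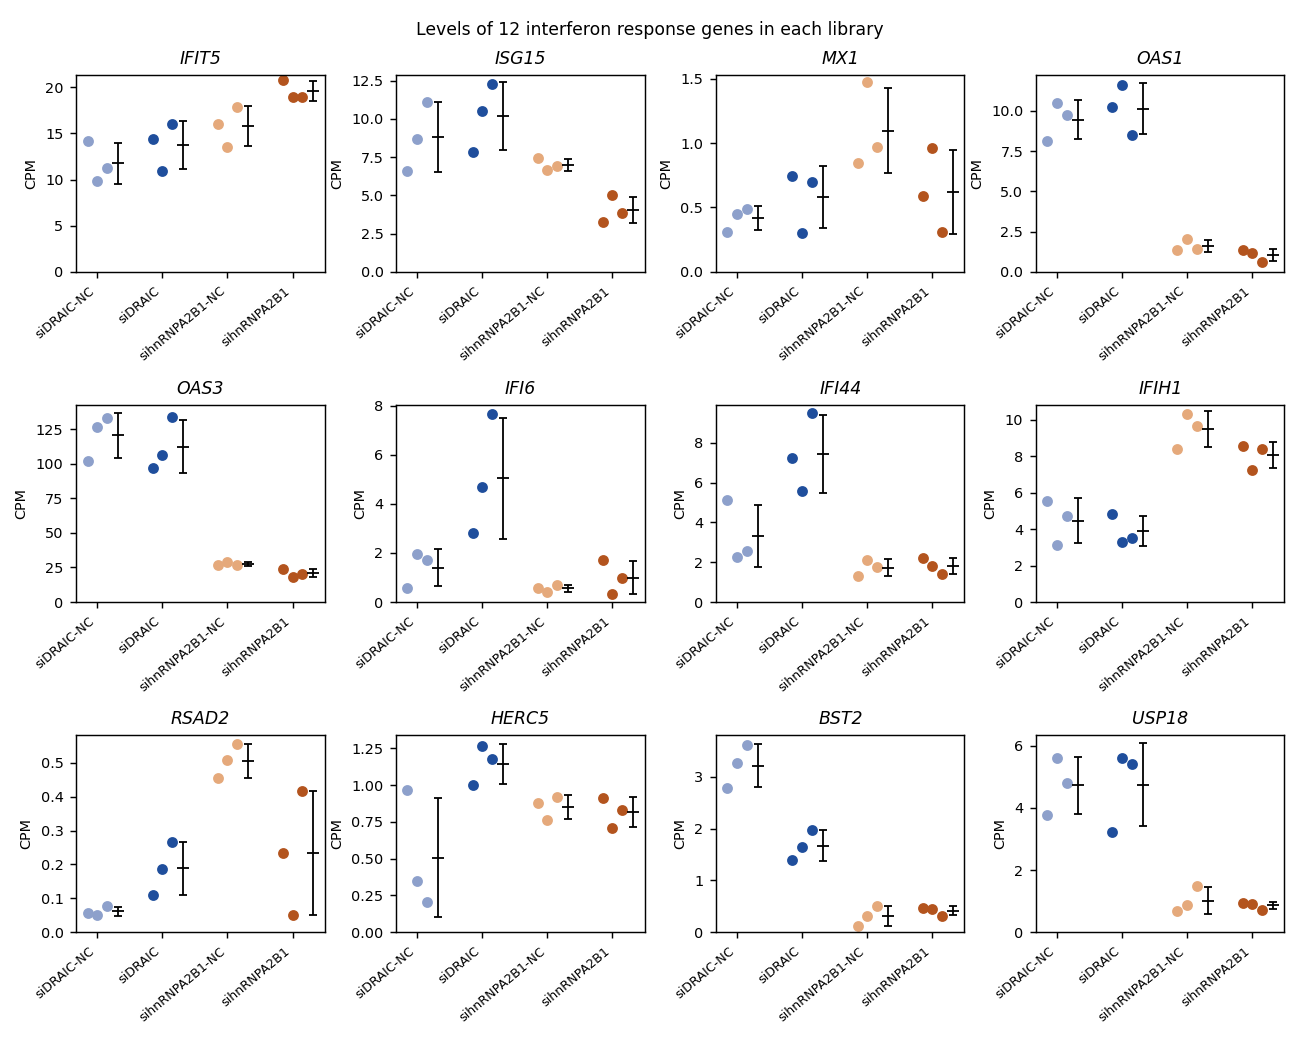
Level in CPM (vertical axis, from 0, each panel on its own scale) of the 12 response genes given library by library, for the 4 groups on the horizontal axis. Points are the 3 libraries of a group, and the bar beside them is the mean ± SD. In OAS1, OAS3, USP18 and BST2 both groups of the DRAIC experiment lie above both groups of the hnRNPA2B1 experiment, while IFI6 and IFI44 are highest in the libraries labelled siDRAIC.

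The first question was whether the response genes differed in the libraries labelled siDRAIC. In the fit of group means, without pairing, none of the 28 tested genes passed edgeR's quasi-likelihood test at an adjusted p below 0.05. Of all 15986 tested genes 0.713% did (0.582% higher, 0.131% lower). At an unadjusted p below 0.05 there were 4, IFI6, IFI44 and HERC5 higher and BST2 lower, against 10.7% of all genes. DESeq2 called 2, IFI6 and IFI44 (2.5% of all genes), and limma-voom 0. With the replicate number as a block, edgeR called IFI6, IFI44 and HERC5 higher and BST2 and SAMD9 lower. In that fit, described below, 8.78% of all genes were called. In 5 of the 28 the libraries of the 2 groups did not overlap (IFI6, IFI44, HERC5 and CMPK2 higher, BST2 lower), where 15.6% of all genes did not. The median log2 fold change was 0.05, beside -0.00 over all genes, with 15 estimates above 0 and 13 below. Without the first siDRAIC-NC library 3 of 29 tested were called, IFI44 and HERC5 higher and BST2 lower, where 6.26% of all genes were. That fit had no block and kept the first siDRAIC library, its partner by number.

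None of the 3 sensors passed the test. RIGI stood at 27.8, 20.8 and 18.2 CPM in siDRAIC-NC and at 21.7, 14.7 and 23.3 in siDRAIC, so the groups overlapped. Its log2 fold change was -0.18, with a 95% interval from -0.65 to 0.29. IFIH1 was at 5.54, 3.11 and 4.72 CPM against 4.85, 3.30 and 3.53, a log2 fold change of -0.21 (-0.81 to 0.39). EIF2AK2, which codes for PKR, the kinase that halts translation when it binds double-stranded RNA, was the most abundant sensor. It was at 144, 94.0 and 97.3 CPM against 123, 71.9 and 115, a log2 fold change of -0.14 (-0.58 to 0.31). Without the first siDRAIC-NC library the estimates were -0.05 for RIGI, -0.08 for IFIH1 and 0.03 for EIF2AK2, the last with its sign turned, and none was called. These intervals come from the fit without pairing and hold changes in either direction. Within pairs of equal number, RIGI was at 0.783, 0.706 and 1.28 times its control. IFIH1 was at 0.876, 1.06 and 0.749 times and EIF2AK2 at 0.855, 0.765 and 1.18 times. The replicate block called none of the 3 either, so these 6 libraries do not settle whether a sensor changed modestly. Of the factors, STAT2 had an estimate of 0.33 (-0.08 to 0.74) and IRF7 one of 0.27 (-0.28 to 0.83), both higher in all 3 pairs of equal replicate number. They were 0.43 and 0.09 without the first siDRAIC-NC library, and neither was called there or with the replicate block. USP18, the protease that removes ISG15 and also restrains the interferon receptor, was at 3.78, 5.61 and 4.79 CPM against 3.21, 5.61 and 5.40.

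IFI6 (ENSG00000126709; hg38 chr1:27666061-27672218, minus strand), a small membrane protein with antiviral activity, had the largest estimate among the tested effectors. Its level was 0.568, 1.95 and 1.70 CPM in siDRAIC-NC and 2.80, 4.68 and 7.68 in siDRAIC. Every siDRAIC library was above every control, by 4.93, 2.39 and 4.51 times within pairs of equal number. That gave a log2 fold change of 1.79 (edgeR adjusted p = 0.164, SE 0.49, 95% interval 0.71 to 2.87). Under a block for the replicate number the estimate became 1.84 and passed (edgeR adjusted p = 5.88e-09), and DESeq2 without the block gave an adjusted p of 0.00454. Without the first siDRAIC-NC library it was 1.40 (edgeR adjusted p = 0.0593), and without the first siDRAIC library it was 2.09 (edgeR adjusted p = 0.0456).

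IFI44 (ENSG00000137965; hg38 chr1:78649796-78664078, plus strand), a cytoplasmic protein of the response, was at 5.11, 2.25 and 2.55 CPM in siDRAIC-NC. In siDRAIC it was at 7.23, 5.57 and 9.50 CPM. Here too the groups did not overlap, although the lowest siDRAIC library lay close to the first control. Its log2 fold change was 1.16 (edgeR adjusted p = 0.146, SE 0.32, 95% interval 0.47 to 1.85), and 1.20 with the replicate block (edgeR adjusted p = 2.92e-05). DESeq2 gave an adjusted p of 0.0189. Without the first siDRAIC-NC library the estimate was 1.56 (edgeR adjusted p = 0.0111). Its neighbour IFI44L, on the same strand of chromosome 1, did not share the pattern: it was at 0.397, 0.250 and 0.876 CPM against 0.388, 0.140 and 0.428, lower in all 3 pairs.

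HERC5 (ENSG00000138646; hg38 chr4:88457117-88506163, plus strand) is the ligase that attaches ISG15 to newly made proteins. It was at 0.965, 0.351 and 0.206 CPM in siDRAIC-NC and at 0.997, 1.26 and 1.18 in siDRAIC. The first pair was nearly level, and pairs 2 and 3 differed by 3.60 and 5.71 times. On the log2 scale the estimate was 1.19 (edgeR adjusted p = 0.397, SE 0.50), 1.34 with the replicate block (edgeR adjusted p = 0.035) and 1.96 without the first siDRAIC-NC library (edgeR adjusted p = 0.0334). ISG15 itself was at 6.59, 8.69 and 11.1 CPM against 7.87, 10.5 and 12.3. It was higher in all 3 pairs, by 1.19, 1.21 and 1.10 times, but the groups overlapped, and the log2 fold change of 0.18 (-0.40 to 0.77) turned to -0.018 without the first siDRAIC-NC library.

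BST2 (ENSG00000130303; hg38 chr19:17402939-17405648, minus strand), known as tetherin because it holds budding virus particles at the cell surface, went the other way. It was at 2.78, 3.26 and 3.61 CPM in siDRAIC-NC and at 1.39, 1.64 and 1.98 in siDRAIC. All 3 pairs were lower, at 0.498, 0.503 and 0.549 of the control. BST2 had a log2 fold change of -0.97 (edgeR adjusted p = 0.183, SE 0.29), -0.98 with the replicate block (edgeR adjusted p = 0.0114) and -1.10 without the first siDRAIC-NC library (edgeR adjusted p = 0.0486). Blood and immune markers were lower in sum in the same libraries, mostly through 1 gene. LAPTM5, a lysosomal protein of blood cells, fell by 2.86 on the log2 scale (edgeR adjusted p = 0.00801), the 1 call among 2 of 10 such markers tested, and by 3.05 without the first siDRAIC-NC library (edgeR adjusted p = 0.00265). CSF1R was lower too but not called, and CD14 and FCER1G overlapped between the groups. SPI1 went the other way, with 0, 0 and 0 counts in siDRAIC-NC and 2, 8 and 0 in siDRAIC. PTPRC had 6, 0 and 0 counts against 0, 0 and 0, and TYROBP, AIF1, CD3E and MS4A1 had 0 in both groups. Fibroblast markers summed to 10.5 to 18.2 CPM against 2.55 to 6.59, but nearly all of this was COL1A1 and PDGFRB. COL1A2 and LUM had 0 counts in both groups, and DCN had 0 to 2. Mitochondrial mRNA made up 7.67 to 9.26% of counts against 6.79 to 7.41%. The part of these shifts in the response genes was not tested.

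The replicate numbers were taken to pair the libraries of this experiment, as same-numbered libraries deviated together. Under that block 5 of the 28 genes were called: IFI6, IFI44 and HERC5 rose, and BST2 and SAMD9 fell. In that fit 8.78% of all genes were called. SAMD9 and its neighbour SAMD9L on chromosome 7, both known as restriction factors of poxviruses, and DDX60, a helicase of the response, showed the pairing most plainly. SAMD9 was at 9.65, 3.08 and 1.73 CPM in siDRAIC-NC and at 7.92, 1.59 and 0.803 in siDRAIC, lower in each pair while the groups overlapped almost fully. Without the block its estimate was -0.49 on the log2 scale (edgeR adjusted p = 0.922, SE 1.07), and with it -0.74 (edgeR adjusted p = 0.0481, SE 0.26). With the first siDRAIC-NC library left out and no block the sign turned, to 0.43 (SE 1.15, edgeR adjusted p = 0.884). SAMD9 is described although it falls outside the rule for named genes, after its values were seen. SAMD9L was at 8.49, 4.56 and 1.93 CPM against 8.87, 4.30 and 1.85, so that its 3 pairs were nearly level while its highest library was 4.39 times its lowest in siDRAIC-NC and 4.80 times in siDRAIC. DDX60 was at 13.6, 3.81 and 3.87 against 11.1, 4.82 and 4.55 CPM. The first library of both groups was thus the highest for all 3 genes.

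**Figure D2:**
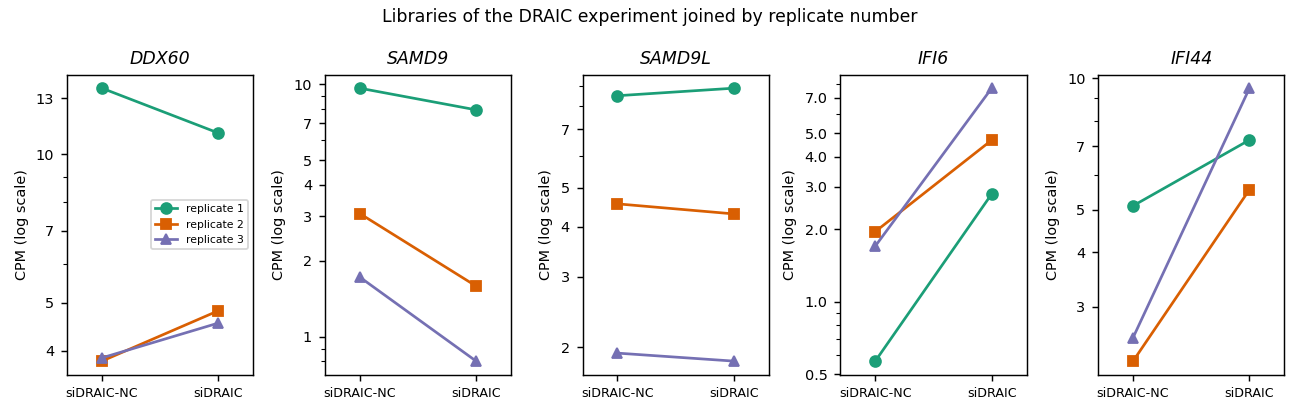
Level in CPM (vertical axis, log scale) of DDX60, SAMD9, SAMD9L, IFI6 and IFI44 in the DRAIC experiment, with a line from the siDRAIC-NC library to the siDRAIC library of the same replicate number. The first replicate lies above the others in both groups for DDX60, SAMD9 and SAMD9L, and all 3 lines rise for IFI6 and IFI44.

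None of the other effectors tested was called. OAS1 and OAS3 make the short oligoadenylates that switch on the nuclease RNase L. OAS3 was at 102, 126 and 133 CPM against 96.7, 106 and 134, a log2 fold change of -0.13 (-0.54 to 0.27), and OAS1 at 8.15, 10.5 and 9.77 against 10.3, 11.6 and 8.53, one of 0.07 (-0.43 to 0.58). The IFIT genes had estimates of 0.18 (IFIT1), 0.02 (IFIT2), -0.08 (IFIT3) and 0.20 (IFIT5). CMPK2, a mitochondrial nucleotide kinase, was at 0.312, 0.526 and 0.0515 CPM against 0.554, 0.655 and 0.936. Its groups did not overlap, and the pairs were higher by 1.77, 1.24 and 18.2 times. The lowest of these values is 2 counts, and the log2 fold change of 1.23 had an interval from -0.09 to 2.55, close to 2 standard errors from 0. Its neighbour RSAD2, or viperin, which makes a chain-terminating nucleotide, fell under the filter with 2, 2 and 3 counts in siDRAIC-NC and 4, 8 and 10 in siDRAIC.

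The second comparison asked whether the response genes changed after hnRNPA2B1 siRNA, in the experiment with the smaller spread. Of the 28 tested genes 3 changed: ISG15 and OAS3 fell and IFIT5 rose (edgeR, adjusted p below 0.05), 10.7% of those tested. Over all 15710 tested genes 30.4% were called, 15.1% higher and 15.4% lower, so the share among the response genes was below that of the background. At an unadjusted p below 0.05 there were 7, against 40.1% of all genes. The median log2 fold change was -0.06, beside 0.01 over all genes, with 12 estimates above 0 and 16 below, and no called gene changed by 2-fold. In 6 genes the libraries of the 2 groups did not overlap (IFIT5 and EIF2AK2 higher, ISG15, OAS3, RSAD2 and IFI44L lower), where 42% of all genes did not.

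ISG15 (ENSG00000187608; hg38 chr1:1001138-1014540, plus strand), the ubiquitin-like protein that is joined to other proteins during the response, had the smallest p. It was at 7.44, 6.66 and 6.95 CPM in sihnRNPA2B1-NC and at 3.29, 5.00 and 3.85 in sihnRNPA2B1. All siRNA libraries were below all controls, at 0.442, 0.752 and 0.553 of the control of the same number. ISG15 fell by 0.82 on the log2 scale (SE 0.15, 95% interval -1.13 to -0.51; edgeR adjusted p = 0.000123).

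OAS3 (ENSG00000111331; hg38 chr12:112938352-112973249, plus strand), the largest of the synthetases, was at 26.5, 29.2 and 27.0 CPM and then at 24.0, 17.9 and 20.6. The controls were tight and the siRNA libraries lay below them. OAS3 fell by 0.44 on the log2 scale (SE 0.09, 95% interval -0.63 to -0.26; edgeR adjusted p = 0.000434). Its neighbour OAS1 was at 1.36, 2.03 and 1.42 CPM against 1.38, 1.14 and 0.624. The first library was level with its control, libraries 2 and 3 were lower, and OAS1 had a log2 fold change of -0.66 that missed the threshold (edgeR adjusted p = 0.0909).

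IFIT5 (ENSG00000152778; hg38 chr10:89414586-89421001, plus strand), a member of the IFIT family of RNA-binding proteins, was at 16.0, 13.5 and 17.8 CPM and then at 20.8, 18.9 and 18.9. IFIT5 rose by 0.28 on the log2 scale (SE 0.10, 95% interval 0.08 to 0.47; edgeR adjusted p = 0.0276). The highest control lay just under the lowest siRNA library. The call was lost without the first control (adjusted p = 0.062 with edgeR), without the second control (edgeR adjusted p = 0.167) and without the first siRNA library (edgeR adjusted p = 0.135). In 1 fit of all 12 libraries, whose common spread includes that of the DRAIC experiment, ISG15 (edgeR adjusted p = 0.0944), OAS3 (0.197) and IFIT5 (0.437) all missed the threshold with estimates of -0.82, -0.44 and 0.28.

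Another 4 genes had an unadjusted p below 0.05 and an adjusted p above the threshold, all with lower estimates. They were OAS1, above, MX1, IFIH1 and RSAD2. MX1, a GTPase that traps viral nucleocapsids, was at 0.844, 1.47 and 0.973 CPM against 0.587, 0.965 and 0.312 (log2 fold change -0.86, edgeR adjusted p = 0.0883). IFIH1 was at 8.41, 10.3 and 9.67 CPM against 8.57, 7.24 and 8.39 (log2 fold change -0.27, edgeR adjusted p = 0.0904). RSAD2 was at 0.455, 0.508 and 0.556 CPM against 0.235, 0.0508 and 0.416 (log2 fold change -1.14, edgeR adjusted p = 0.111). RSAD2 held only 8, 2 and 16 counts in the siRNA libraries, and limma-voom put it past the threshold (adjusted p = 0.0393).

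The other sensors and factors had narrow intervals around 0. RIGI was at 19.4, 18.4 and 23.5 CPM in the controls and at 20.2, 20.5 and 20.6 after the siRNA, a log2 fold change of -0.03 (95% interval -0.22 to 0.15). EIF2AK2 was at 107, 92.9 and 103 CPM against 110, 114 and 108, one of 0.10 (-0.02 to 0.22). STAT2 had an estimate of -0.07 (-0.24 to 0.09) and IRF7 one of 0.06 (-0.16 to 0.27). Neither IFI6 nor IFI44, the leading genes of the other experiment, passed: IFI6 was at 0.584, 0.406 and 0.695 CPM against 1.70, 0.330 and 0.961, and IFI44 at 1.30, 2.11 and 1.78 against 2.23, 1.80 and 1.43. HERC5 was at 0.877, 0.762 and 0.917 CPM against 0.910, 0.711 and 0.831, and BST2 at 0.130, 0.305 and 0.500 against 0.470, 0.457 and 0.312. In the same libraries LAPTM5, the 1 immune marker of 10 that could be tested, fell by 1.36 on the log2 scale (edgeR adjusted p = 0.0136), and mitochondrial mRNA made up 6.23 to 6.48% of counts against 5.10 to 5.21%. The part of these in the response genes was not tested.

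**Figure D3:**
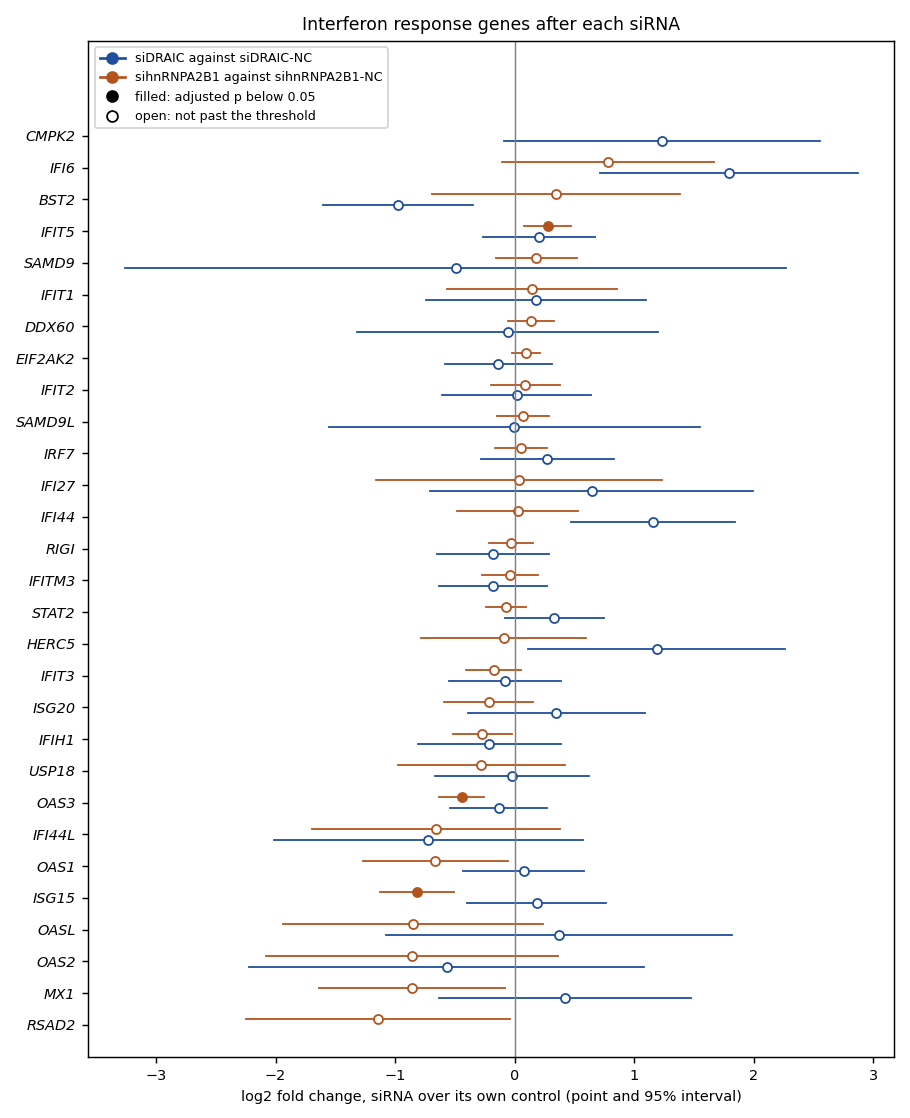
Log2 fold change of each siRNA group over its own control (horizontal axis) for the response genes tested in at least 1 of the 2 comparisons, with points at the estimate and lines for the 95% interval. Filled points passed edgeR's test without the replicate block: ISG15 and OAS3 to the left of 0 and IFIT5 to the right, after hnRNPA2B1 siRNA. All points of the DRAIC experiment are open and its lines are mostly longer.

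Whether a gene responded differently in the 2 experiments was tested directly, by subtracting the hnRNPA2B1 siRNA effect from the effect in the DRAIC experiment. None of the 29 tested response genes passed edgeR's test, where 0.211% of all 17091 genes did. DESeq2 and limma-voom also called 0 of them (DESeq2 called 1.18% of all genes). At an unadjusted p below 0.05 there were 5, against 9.13% of all genes. The differences were 0.97 for ISG15 (95% interval 0.27 to 1.67; edgeR adjusted p = 0.336), 1.11 for IFI44 (0.21 to 2.01; edgeR adjusted p = 0.42) and 1.25 for HERC5 (0.03 to 2.47; edgeR adjusted p = 0.527). For BST2 the difference was -1.35 (-2.44 to -0.26; edgeR adjusted p = 0.414), and for RSAD2, with 2, 2 and 3 counts in siDRAIC-NC, it was 2.65 (0.62 to 4.69; edgeR adjusted p = 0.376). With the replicate block ISG15 alone was called (1.00, edgeR adjusted p = 0.0479; 1.51% of all genes called), and without the first siDRAIC-NC library HERC5 alone (2.01, edgeR adjusted p = 0.0476). IFI6 differed by 0.97 with an interval from -0.75 to 2.69, so its larger estimate in the DRAIC experiment was not shown to differ from that after hnRNPA2B1 siRNA.

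The 2 control groups, both of the same cell line, were compared as the background of the experiments. Of 28 tested genes 15 differed (edgeR, adjusted p below 0.05), 8 higher and 7 lower in siDRAIC-NC than in sihnRNPA2B1-NC. Over all genes 50.1% differed, 25.3% higher and 24.8% lower, so the share among the response genes was near that of the background. The median log2 difference was 0.14, beside 0.01 over all genes. In 16 genes the libraries did not overlap, where 59.9% of all genes did not. The experiment and the control group cannot be told apart here, and markers of the kidney line differed too, with 7 of 8 tested higher in siDRAIC-NC.

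Higher in siDRAIC-NC were BST2, OAS1, USP18, OAS3, IFIT1, IFI6, IFITM3 and IFI44. BST2 was at 2.78, 3.26 and 3.61 CPM against 0.130, 0.305 and 0.500, a log2 difference of 3.35 (SE 0.39, edgeR adjusted p = 0.000164). OAS1 was at 8.15, 10.5 and 9.77 CPM against 1.36, 2.03 and 1.42 (2.57, SE 0.24, edgeR adjusted p = 4.7e-05), and OAS3 at 102, 126 and 133 against 26.5, 29.2 and 27.0 (2.15, SE 0.16, edgeR adjusted p = 1.54e-05). These 2 synthetase genes lie side by side on chromosome 12, and OAS2, the next gene of that cluster, had an estimate of -0.10 (SE 0.67). USP18 was at 3.78, 5.61 and 4.79 CPM against 0.682, 0.864 and 1.50 (2.23, SE 0.33, edgeR adjusted p = 0.000538). The 4 genes were each separated in all libraries. The IFI6 call (1.37, edgeR adjusted p = 0.0437) was kept only when the library left out was the first siDRAIC-NC, and missed the threshold without any of the other 5 (edgeR adjusted p from 0.0766 to 0.17). It was also lost with limma-voom (adjusted p = 0.113), with the replicate block (edgeR adjusted p = 0.0598) and in 1 fit of all 12 libraries (edgeR adjusted p = 0.0658). The IFI44 call (0.91, edgeR adjusted p = 0.0412) was lost without the first siDRAIC-NC library and without each sihnRNPA2B1-NC library (edgeR adjusted p from 0.0517 to 0.14), with limma-voom (adjusted p = 0.0579) and with the replicate block (edgeR adjusted p = 0.0681). Replicate numbers were not taken to pair libraries between the 2 control groups, so losses under the block say little about these calls.

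Lower in siDRAIC-NC were RSAD2 (-2.96), ISG20 (-1.77), MX1 (-1.37), SAMD9L (-1.13), DDX60 (-1.11), IFIH1 (-1.09) and IRF7 (-0.71). IFIH1 was at 5.54, 3.11 and 4.72 CPM against 8.41, 10.3 and 9.67 (SE 0.21, edgeR adjusted p = 0.00243). ISG20, an exonuclease that digests single-stranded RNA, was at 0.880, 1.25 and 0.928 CPM against 2.95, 3.86 and 3.78 (SE 0.26, edgeR adjusted p = 0.000558). The value of RSAD2 rests on 2, 2 and 3 counts in siDRAIC-NC against 14, 20 and 20. The response genes were thus split in direction between cells of the same line. Without the first siDRAIC-NC library 18 of the genes were called, and without the second sihnRNPA2B1-NC library 8, MX1 not among them (edgeR adjusted p = 0.0855). Those 8, called whichever library was left out, were BST2, OAS1, OAS3, USP18, IFITM3, IFIH1, ISG20 and RSAD2. Shares over all genes are not given for these refits, so the change in count is not read as particular to the response genes.

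**Figure D4:**
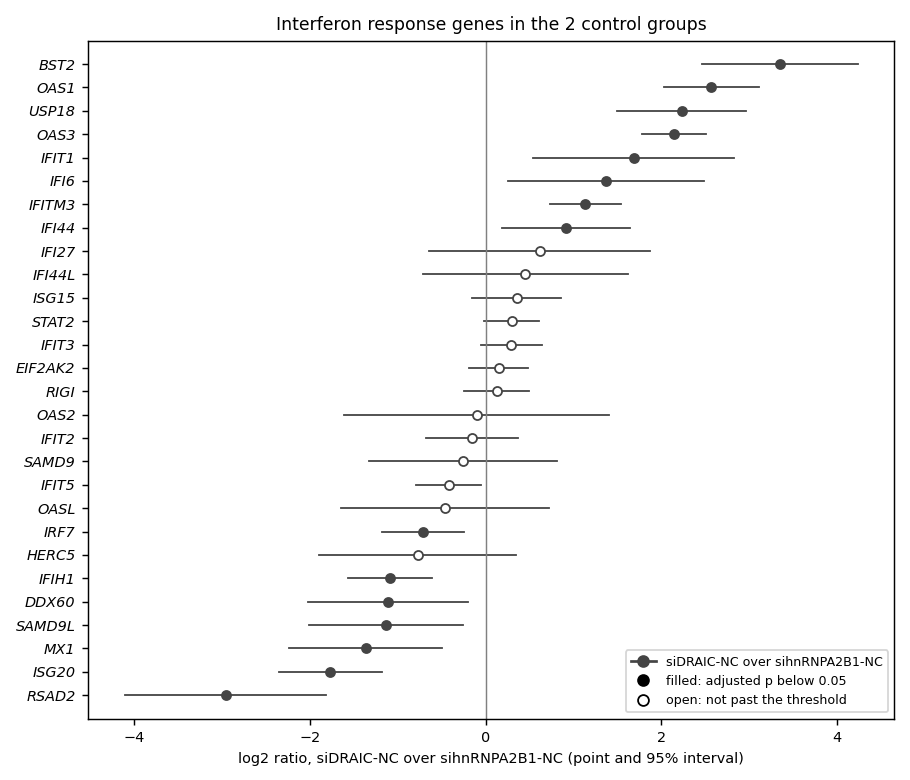
Log2 ratio of siDRAIC-NC over sihnRNPA2B1-NC (horizontal axis) for the 28 response genes tested, with points at the estimate and lines for the 95% interval. The 15 filled points passed edgeR's test, from BST2 at 3.35 to RSAD2 at -2.96, and they lie on both sides of 0.

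The rest of the pathway was read from lists of ligands, receptors, factors, sensors and regulators. Of 10 interferon genes, IFNA2, IFNW1, IFNG and IFNL1 to IFNL3 had 0 counts in every library. IFNB1, the interferon that sensors switch on first, had 0 counts in 10 libraries and 2 in each of the others, and IFNA1 had 0 to 2. IFNE, an epithelial interferon, was the only one that could be tested, after hnRNPA2B1 siRNA, and its log2 fold change of 0.57 was not called. The receptor gene IFNAR1 had estimates of 0.20 (SE 0.21) in the DRAIC experiment and 0.06 (SE 0.07) in the other, and was not called in either. It stood at 38.2 ± 7.42 CPM in siDRAIC and 48.6 ± 2.01 in sihnRNPA2B1 (SD, n = 3). In the libraries labelled siDRAIC, edgeR called 0 of 8 tested receptors and kinases, 0 of 6 STAT and IRF factors and 0 of 16 sensors and adaptors. It also called 0 of 7 negative regulators or enzymes that attach ISG15 (UBA7 and UBE2L6) and 0 of 29 further interferon-induced genes. Of all genes 0.713% were called. At an unadjusted p below 0.05 these lists held 1, 1, 0, 1 and 4 genes, against 10.7% of all genes. JAK1 was the gene among the receptors and kinases, with a log2 fold change of 0.60 (edgeR adjusted p = 0.198) and of 0.62 with the replicate block (edgeR adjusted p = 0.000577). That block also called SOCS3, a feedback inhibitor of cytokine signalling (-0.84, edgeR adjusted p = 3.36e-05), and SP110, a nuclear body protein (0.54, edgeR adjusted p = 0.0454). Under it 8.78% of all genes were called. Without the first siDRAIC-NC library and with no block, 4 genes of these lists were called: JAK1 higher (0.80, edgeR adjusted p = 0.0075), and SOCS3 (-1.20), IRF1 (-0.71) and PML (-0.55) lower. In that fit 6.26% of all genes were called, so nothing particular to the pathway is read from these counts.

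After hnRNPA2B1 siRNA, where 30.4% of all genes were called in nearly equal parts higher and lower, genes of these lists were called in both directions too, and nothing particular to the pathway is read from the counts. JAK1 rose (0.34, edgeR adjusted p = 1.71e-06), and JAK2 (-0.27) and IFNGR2 (-0.19) fell, among 8 receptors and kinases. IRF3, the factor that acts just below the sensors, fell by 0.42 on the log2 scale (edgeR adjusted p = 9.8e-06), the 1 of 6 tested factors that fell. Of 15 sensors and adaptors 2 rose, DHX58 (0.48) and IFI16 (0.15), and 4 fell, IKBKE (-0.81), CGAS (-0.44), TICAM1 (-0.20) and TRIM25 (-0.16). Of 7 genes listed as negative regulators or enzymes that attach ISG15, SOCS3 fell (-0.83, edgeR adjusted p = 4.88e-10) and none rose. Of 28 further interferon-induced genes 5 rose and 4 fell. TNFSF10, the death ligand TRAIL, rose from 4.74 ± 0.371 to 9.36 ± 1.13 CPM (SD, n = 3; 0.95, edgeR adjusted p = 2.55e-06), and PML and HELZ2 fell by 0.40 and 0.39 on the log2 scale.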

How the data were processed

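RNA-seq of 12 libraries of 769-P cells was analysed from the raw read counts per Ensembl gene that the authors deposited, in a table for each experiment. Per the labels' protocols the libraries are TruSeq libraries, and the submitters' processing notes name STAR 2.7.10a, fastp 0.23.2, DESeq2 and StringTie, with hg38 as the genome build. Which program counted reads, with which annotation and strand setting, is not given in the sources used. Among counts of 1 to 20, 57.8 to 62.1% were even, and every library had more genes with 2 counts than with 1, so counts are not independent molecules and floors cover counting error only.

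Both tables hold 60617 gene IDs, and every line names a gene. Coordinates and merged exon lengths are from GENCODE 29 and promoters from RefSeq. Each comparison across all genes was fitted with edgeR 4.0.16 in R 4.3.3 (filterByExpr at its minimum count of 10, TMM factors, robust quasi-likelihood test, two-sided, Benjamini-Hochberg adjustment over all genes tested), and a gene is called at an adjusted p below 0.05. The same code was run on simulated counts for both siRNA comparisons. These were drawn without pairing and without a library that stood apart, so the run checked the code and not the fit to these data. Standard errors were taken as the size of the log2 fold change divided by the root of F. The difference of effects used all 12 libraries with 4 group means. As alternatives, each library was left out in turn, the replicate number was added as a block, a 2-fold threshold was set, all 12 libraries were fitted together, the filter was dropped or set at 1 CPM in 3 libraries, and the fit was repeated with RLE factors, limma-voom (limma 3.58.1) and DESeq2 1.42.0.

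The groups share replicate numbers in the labels. Correlations of deviations from the group means were 0.489, 0.227 and 0.277 for same-numbered pairs of the DRAIC experiment (other pairs -0.409 to 0.103), above 0.1 in all 3, so the numbers were taken to pair those libraries. In the hnRNPA2B1 experiment they were -0.0117, -0.0242 and -0.0456, so the numbers were not taken as pairs there. Between the 2 control groups they were -0.0174, 0.118 and -0.099, and the numbers were not taken as pairs there either.

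The 33 genes, the 11 other lists and the tests were chosen with earlier results of these data known. Values are given in every library for response genes called, or with an unadjusted p below 0.05, in either siRNA comparison and for up to 4 with the largest difference between the controls, with examples from the others. From the other lists, up to 4 called genes with the smallest p per list and comparison were to be named. Any other gene was named after its values were seen. A gene of the other lists is not reported here.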

Additional observations from a re-analysis of the deposited data

How the results depend on the processing

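The counts of called response genes were recomputed under every alternative. In the libraries labelled siDRAIC the count of 0 became 2 with DESeq2 and 2 with no low-count filter (IFI6 and IFI44 in both), 5 with the replicate block (3 higher, 2 lower), 1 in 1 fit of all 12 libraries (IFI44), and 0 to 3 with 1 library left out, 3 without the first siDRAIC-NC library and 1 without the first siDRAIC library. After hnRNPA2B1 siRNA the count of 3 became 0 in 1 fit of all 12 libraries and 0 at a 2-fold threshold, and ran from 2 to 5 with 1 library left out, 5 without the second siRNA library (IFI6 and MX1 gained) and 5 without the last (RSAD2 and SAMD9 gained). For the difference of effects the count of 0 became 1 with the replicate block and 0 to 1 with 1 library left out. Between the controls the count of 15 ran from 8 to 18 with 1 library left out. Where no share over all genes is given above for a refit, its count is not read as particular to the response genes. For 12 named genes 654 values were recomputed: 594 kept their direction and side of the threshold, 21 lost the call, 24 gained it and 15 changed sign.

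Each change of sign came from leaving out 1 library, and the cause was not tested. Over the libraries left out, the log2 fold change in the DRAIC experiment ran from -0.018 to 0.38 for ISG15, from -0.074 to 0.19 for OAS1 and from -0.20 to 0.21 for USP18. After hnRNPA2B1 siRNA it ran from -0.14 to 0.21 for IFI44, from -0.17 to 0.00071 for HERC5 and from -0.49 to 0.10 for USP18. For the difference it ran from -0.22 to 0.056 for IFIT5, from -0.15 to 0.15 for IFIH1 and from -0.16 to 0.48 for USP18. In the hnRNPA2B1 experiment the replicate block called the same 3 response genes, while IFNGR2 (adjusted p = 0.0549) and IFI16 (adjusted p = 0.0827) lost their calls with edgeR. Between the controls, where the numbers were not taken as pairs, the block called 13. The 3 libraries per group and the low counts of MX2, XAF1, IRF9, IFITM1, RSAD2 and CMPK2 limit what could be seen.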

Other observations

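Genes of interferon gamma and antigen presentation form a list apart from the 33 type I response genes. After hnRNPA2B1 siRNA 13 of 20 tested fell and 0 rose (edgeR, adjusted p below 0.05), where 15.4% of all genes fell and 15.1% rose. Their median log2 fold change was -0.34, beside 0.01 over all genes. Summed blood and immune markers were lower too, at 1.40 to 1.72 CPM in the controls and 0.598 to 0.965 after the siRNA. LAPTM5, most of that sum in the controls and the only marker tested, fell by 1.36 on the log2 scale (edgeR adjusted p = 0.0136). CSF1R and FCER1G overlapped between the groups. The part of these markers in the result was not tested. CD74, the invariant chain of class II antigen presentation, was at 1.40, 1.40 and 2.86 CPM in the controls and at 0.235, 0.508 and 0.520 after the siRNA, and fell by 2.17 on the log2 scale (edgeR adjusted p = 2.73e-05). HLA-B (-0.44), HLA-C (-0.36), ICAM1 (-0.40) and PSMB9 (-0.84), a subunit of the immunoproteasome, also fell. In the libraries labelled siDRAIC, CD74 was the 1 call among 21 of these genes, where 0.713% of all genes were called. It fell from 9.11, 12.1 and 24.0 CPM to 0.887, 0.935 and 0.696 (log2 fold change -4.19, edgeR adjusted p = 0.000814), and by 4.48 on the log2 scale without the first siDRAIC-NC library (edgeR adjusted p = 2.67e-05). In that fit PSMB10, an immunoproteasome subunit, was also called (-0.76, edgeR adjusted p = 0.0307), with 6.26% of all genes called. LAPTM5, most of the summed blood cell marker level in siDRAIC-NC, was lower in the same libraries, as was that sum. The part of these markers in this was not tested.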
